A study of Mus musculus with 6 samples.

Results

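The genes described here are 38 components of the protein-folding and quality-control machinery of the endoplasmic reticulum (ER): the stress sensors Ern1, Atf6 and Atf6b with the transcription factor Xbp1, the chaperones and their helpers, the enzymes that form disulfide bonds, the ER-associated degradation (ERAD) machinery and 1 translocon subunit. They were chosen by symbol, with earlier results of these data known. Each symbol was matched by Ensembl identifier in GENCODE M21 to 1 of the 55335 genes in the deposited tables. Of the 38, 37 had enough counts to be tested, and Derl3, with between 0 and 3 counts per library, did not. In IFNγR1KO cells 15 of the 37 rose and 0 fell, where 7.66% of all tested genes were higher and 7.50% lower, and the count of members called higher ranged from 7 to 18 when 1 library was left out. The estimates were highest for Herpud1, Dnajb9, Atf6, Sel1l and Syvn1, while the abundant lectin chaperones and several abundant disulfide isomerases did not pass the test.

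Proteins that enter the secretory pathway fold inside the ER with the help of the chaperone BiP (Hspa5), the lectins calreticulin and calnexin and the protein disulfide isomerases. When misfolded proteins accumulate, IRE1 (Ern1) splices the Xbp1 messenger RNA and ATF6 is cleaved in the Golgi apparatus, and the resulting transcription factors raise chaperone and ERAD genes, a program called the unfolded protein response. ERAD recognises proteins that fail to fold, moves them through the ER membrane and hands them to the proteasome. Melanoma cells make pigment-pathway glycoproteins such as tyrosinase, which fold in the ER and are known ERAD clients.

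The data were gene counts from poly(A) RNA-seq of B16-BL6, a mouse melanoma line, in 6 untreated cultures seeded overnight: 3 of scrambled control (replicates 1 to 3) and 3 of IFNγR1KO (replicates 10 to 12). Both groups carried a lentiviral CRISPR-Cas9 vector with puromycin selection; the guide of the control was directed at GFP, a sequence absent from the mouse genome, and those of the knockout at exon 1 of Ifngr1, which encodes a chain of the interferon-γ receptor. The knockout model was derived from single-cell clones, and nothing in the labels tells if the 3 knockout cultures are 1 clone, so effects of the deletion and of the clone cannot be told apart, and the p-values below measure only the spread between these cultures, which may be technical. Counts assigned to genes ranged from 9402640 to 10579788 in the control libraries and from 6698956 to 7409479 in the knockout libraries, so that 1 count stood for 0.0966 to 0.142 CPM (counts scaled to library size with the TMM factors of edgeR). Ifngr1 itself (ENSMUSG00000020009.13) had 16.7, 14.3 and 16.6 CPM in the control libraries and 11.4, 11.5 and 11.5 CPM in the knockout libraries (log2 fold change -0.47, SE 0.16, adjusted p = 0.0709), a level without overlap between the groups; transcripts cut in the first exon can still be counted, so this level is no check of the deletion. The 7 melanocyte markers summed to 31716 to 34659 CPM in control and 27898 to 32830.0 CPM in knockout libraries with none at 0, whereas the blood, endothelial, keratinocyte and fibroblast marker lists each summed to at most 8.72 CPM, with Cd3e, Cdh5, Trp63 and Lum at 0 in every library. The fibroblast list was 4.38 to 5.97 CPM in control and 6.25 to 8.72 CPM in knockout, where Col1a1 was higher (1.33 and 5.20 CPM on average, log2 fold change 1.96, adjusted p = 0.00184) and Pdgfra had 3.60 and 2.10 CPM (-0.77, adjusted p = 0.086), with Dcn at 0 or 1 count; their part in the results was not tested. In bulk RNA, fewer cells of a type and less RNA per cell cannot be told apart.

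RefSeq windows of GRCm38.p6, from 250 bases before to 50 after the start site, were found for 32 of the 38 members and searched on both strands for the ER stress response element (ERSE), which is CCAAT and CCACG separated by 9 bases and is known to bind NF-Y together with ATF6 or XBP1. An exact ERSE stood in 10 of the 32 members with a window, and in 0.119% of all 32851 windows. The first share counts members, some with more than 1 window, and the second counts windows. The members were chosen by symbol, but many belong to the response that these factors drive. Their share is therefore no independent evidence. The member sites are shown as a description of a sequence feature found in several of the roles. They are written with 5 flanking bases on each side, 5′ to 3′ on the strand that reads CCAAT first, with both parts of the element in capitals:
Hspa5 (chr2:34772020-34772048, + strand): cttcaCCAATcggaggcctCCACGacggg
Creld2 (chr15:88819515-88819543, - strand): gtggaCCAATtgaggctcgCCACGagaag
Ero1lb (chr13:12565677-12565705, - strand): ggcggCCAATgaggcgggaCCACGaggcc
Syvn1 (chr19:6046527-6046555, + strand): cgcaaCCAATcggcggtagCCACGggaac
Hsp90b1 (chr10:86705633-86705661, - strand): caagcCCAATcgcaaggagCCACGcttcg
Hsp90b1, the other site (chr10:86705528-86705556, + strand): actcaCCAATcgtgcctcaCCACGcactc
Dnajc3 (chr14:118937822-118937850, + strand): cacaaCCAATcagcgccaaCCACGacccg
Calr (chr8:84847070-84847098, + strand): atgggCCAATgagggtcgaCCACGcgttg
Canx (chr11:50325795-50325823, - strand): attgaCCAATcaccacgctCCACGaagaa
Pdia6 (chr12:17266486-17266514, + strand): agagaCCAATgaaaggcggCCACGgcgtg
Derl3 (chr10:75893237-75893265, - strand): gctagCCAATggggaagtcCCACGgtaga
Hspa5, Creld2, Ero1lb and Syvn1 were among the members that rose. The other 6 were not, and of these Derl3 had too few counts to be tested. A match of these letters is a description and not a binding measurement. The Hspa5 site lies before the RefSeq start but within the first exon of the longer GENCODE M21 transcript.

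Over all genes, 2068 of 13642 tested genes were called at an adjusted p under 0.05 (15.2%), 1045 of them higher (7.66%) and 1023 lower (7.50%) in IFNγR1KO. Against that background 15 of the 37 tested members were called higher (40.5%) and 0 were called lower; at an unadjusted p under 0.05, 18 members were higher (48.6%) and 0 lower, where 14.1% of all tested genes were higher and 14.7% lower. Applying the additional fold threshold that defines a differentially expressed gene (DEG, absolute log2 fold change above 1), 706 genes of the table (5.18%) and 5 members qualified: Herpud1, Dnajb9, Atf6, Sel1l and Syvn1. The median log2 fold change was 0.36 over the tested members and -0.00147 over all tested genes. Because the members were chosen with earlier results of these data known, these shares and medians are a description and not independent evidence. For 21 members every knockout library lay above every control library, and for 0 members below, where 16% of all genes were separated upwards and 16.6% downwards. DESeq2 called 15 members, the same 15 as edgeR. Summed over all 38 members the level was 17226, 16844 and 16149 CPM in the control libraries and 25804, 21072 and 19342 CPM in the knockout libraries, 1.32 times as high on average. Within this sum Hspa5 alone averaged 2568 CPM in control and 4930 CPM in knockout.

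**Figure D1:**
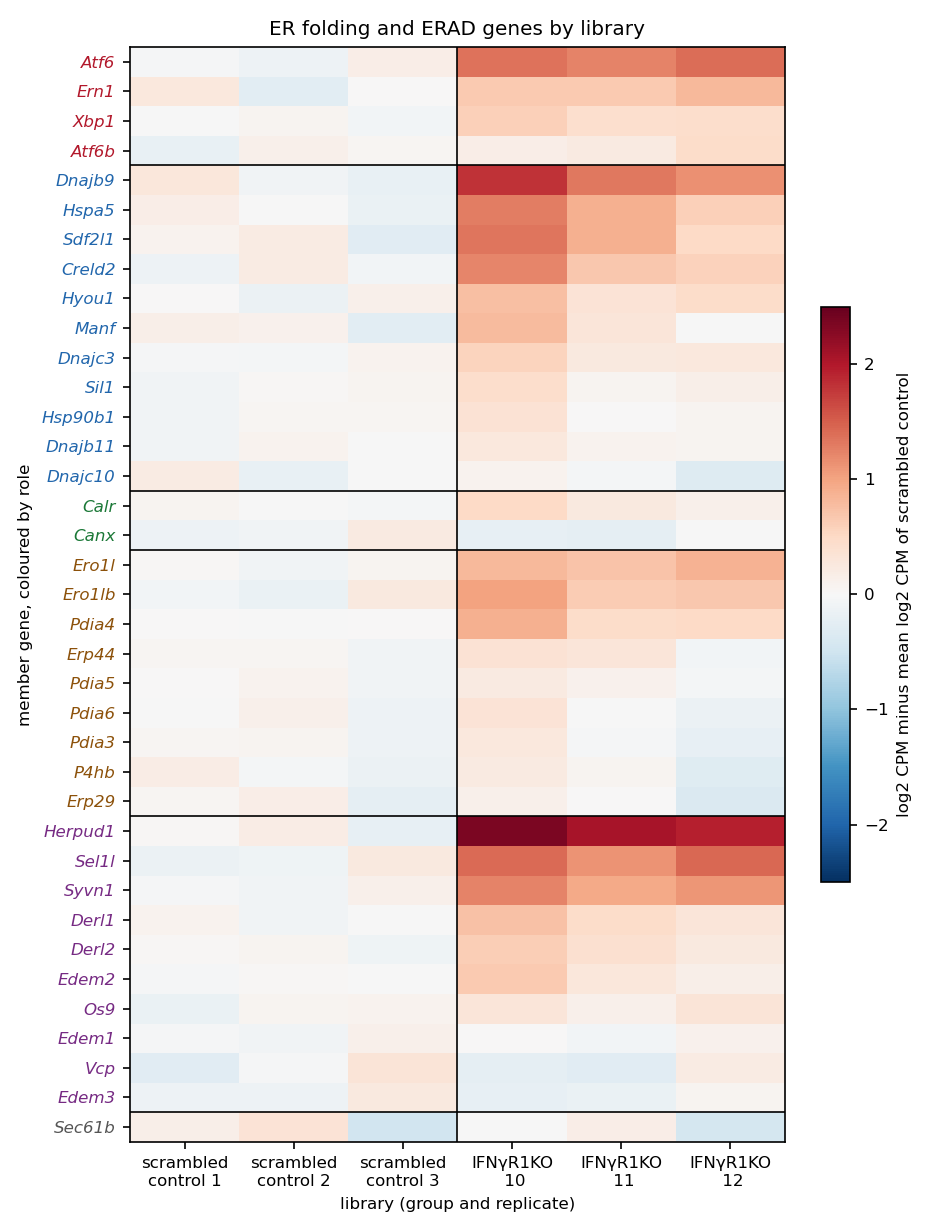
Each row is a tested member, grouped by role, and each column a library; the colour is log2 CPM minus the mean log2 CPM of the 3 scrambled control libraries. The rows of Herpud1, Atf6, Sel1l, Syvn1 and Dnajb9 are coloured towards higher levels in all 3 IFNγR1KO libraries, that of Herpud1 most strongly. Those of P4hb, Pdia3, Edem1 and Canx stay near the control colour.

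Of the 4 sensor genes, counting Xbp1, 3 rose, and Ern1 and Atf6 were among the lowest members in level per length. Atf6 (ENSMUSG00000026663.6, chromosome 1, 170704674 to 170867771), the membrane-bound transcription factor released by cleavage, in GRCm38 coordinates like the other positions given, had 45.7, 42.8 and 52.8 CPM in the control libraries and 121, 111 and 123 CPM in the knockout libraries. All 3 knockout cultures lay above the highest control, 2.51-fold on average (log2 fold change 1.33, SE 0.14, adjusted p = 8.3e-05). Its relative Atf6b, a weaker transcriptional activator, had 81.7, 101 and 95.7 CPM in control and 104, 109 and 128 CPM in knockout; the groups did not overlap, but the difference of 0.29 (95% interval -0.02 to 0.60) did not pass (adjusted p = 0.209). Ern1, the IRE1 kinase and endonuclease, had 29.7, 20.7 and 25.1 CPM in control and 39.2, 39.0 and 43.9 CPM in knockout. It was higher in every knockout culture, by 0.69 on the log2 scale (SE 0.16, adjusted p = 0.0128). Xbp1, whose messenger RNA IRE1 splices, had 201, 212 and 194 CPM in control and 307, 272 and 275 CPM in knockout (log2 fold change 0.49, SE 0.13, adjusted p = 0.0275). Counts per gene include spliced and unspliced Xbp1 alike and do not measure splicing. The call of Ern1 was lost without scrambled control replicate 2 (adjusted p = 0.0652). That of Xbp1 was kept only without IFNγR1KO replicate 12 (adjusted p = 0.0191) among the fits that left out 1 library, with 0.0702, 0.0716 and 0.0703 without control replicates 1, 2 and 3, and 0.137 and 0.0846 without knockout replicates 10 and 11.

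In the network around BiP and GRP94, 5 of 11 members rose, and the most abundant of them was BiP itself. Hspa5 (chromosome 2, 34771970 to 34777547), the ER Hsp70 that binds unfolded chains and holds the sensors inactive, had 2878, 2532 and 2294 CPM in the control libraries and 6186, 4759 and 3844 CPM in the knockout libraries. The lowest knockout culture lay above the highest control, but the 3 knockout cultures were spread more widely than the controls (log2 fold change 0.94, SE 0.20, 1.92-fold, adjusted p = 0.00921).

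Dnajb9 (ERdj4, chromosome 12, 44205559 to 44210326), a co-chaperone that binds BiP and its clients, had the highest estimate of the network; its difference from that of BiP was not tested. It had 58.6, 45.3 and 42.7 CPM in control and 169, 121 and 107 CPM in knockout (log2 fold change 1.44, SE 0.19, adjusted p = 0.000477), with no overlap. Sdf2l1, a partner of BiP and its J proteins, had 244, 264 and 188 CPM in control and 578, 426 and 323 CPM in knockout (log2 fold change 0.93, SE 0.21, adjusted p = 0.0113). Creld2, a secreted ER stress protein, had 225, 284 and 234 CPM in control and 578, 392 and 368 CPM in knockout (log2 fold change 0.85, SE 0.19, adjusted p = 0.0105). For these 3 genes, as for BiP, replicate 10 was the highest and replicate 12 the lowest of the knockout libraries. Hyou1, an Hsp70-related chaperone that exchanges the nucleotide of BiP, had 398, 358 and 431 CPM in control and 659.9, 498 and 543 CPM in knockout (log2 fold change 0.52, SE 0.16, adjusted p = 0.0464). Hsp90b1, which encodes GRP94, the ER Hsp90, had 1455, 1582 and 1583 CPM in control and 1986, 1544 and 1615 CPM in knockout, with overlap and a difference of 0.16 (95% interval -0.20 to 0.52, adjusted p = 0.596).

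The remaining 5 members of the network did not pass. Dnajc3, an inhibitor of the eIF2α kinases, was separated between the groups at 288 ± 14.1 CPM in control and 371 ± 47.8 CPM in IFNγR1KO (SD, n = 3 each), a log2 difference of 0.36 with adjusted p = 0.121 by edgeR. The BiP exchange factor Sil1, the co-chaperone Dnajb11, the disulfide reductase Dnajc10 and the secreted ER stress protein Manf overlapped, with log2 differences of 0.23, 0.14, -0.09 and 0.39 in that order. Without IFNγR1KO replicate 10 the calls of Hspa5, Sdf2l1, Creld2 and Hyou1 were lost (adjusted p = 0.052, 0.0513, 0.0528 and 0.228), and without scrambled control replicate 2 those of Hspa5 and Hyou1 (0.06 and 0.173). Hyou1 was also lost without scrambled control replicate 1 (0.1) and without IFNγR1KO replicate 11 (0.078), and Manf was called only without IFNγR1KO replicate 12 (0.0338).

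**Figure D2:**
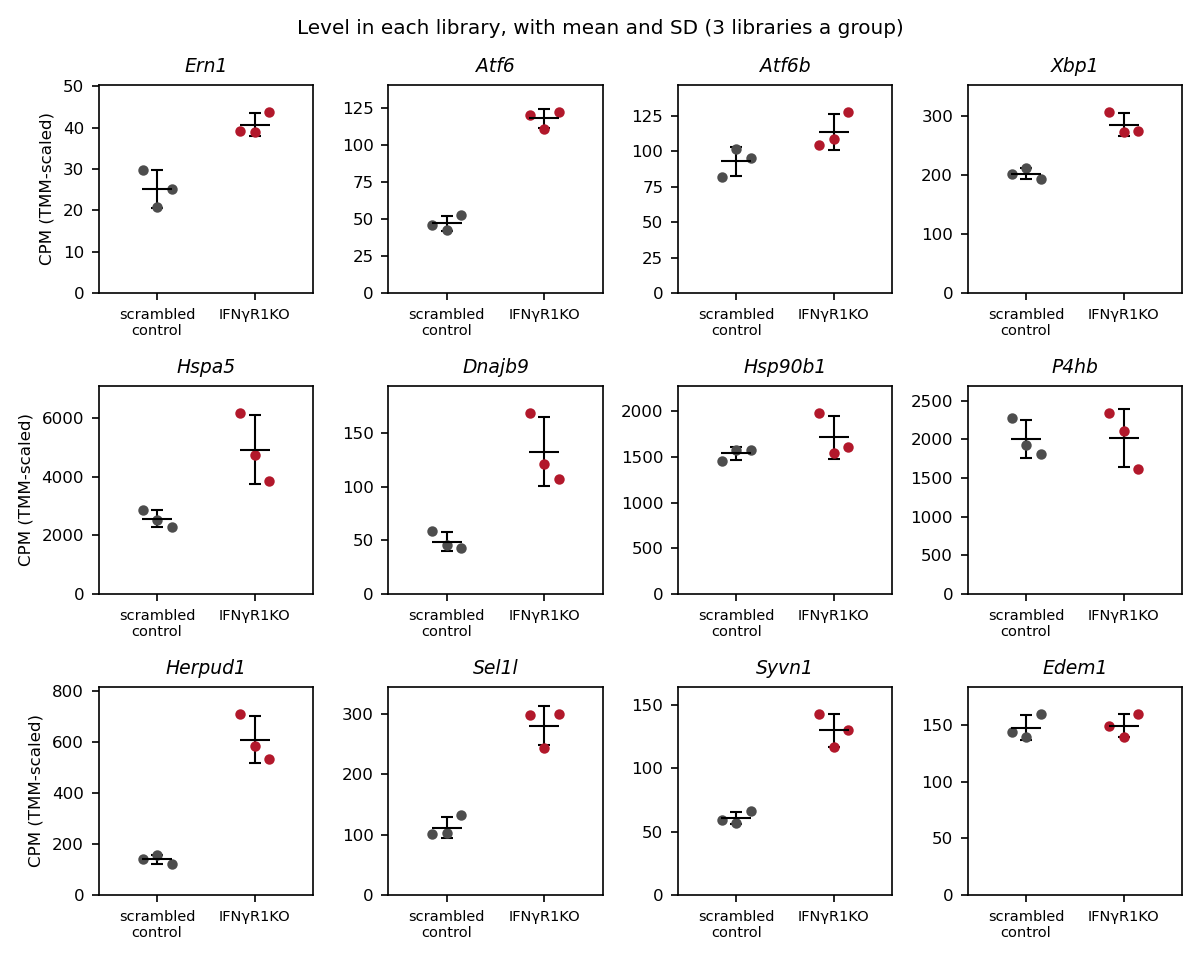
Points are the CPM of each library on a linear axis from 0 for 12 members in the scrambled control (grey) and IFNγR1KO (red) groups, with the mean and SD of 3 libraries. Atf6, Herpud1, Sel1l, Syvn1, Hspa5 and Dnajb9 are separated between the groups, and Hsp90b1, P4hb and Edem1 overlap.

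Neither of the lectin chaperones, which hold glycoproteins while they fold, passed the test. Calr (calreticulin) had 1838, 1736 and 1687 CPM in control and 2475, 2073 and 1904 CPM in knockout. These values did not overlap, yet the difference of 0.29 (95% interval -0.07 to 0.66) gave adjusted p = 0.276. Canx (calnexin), its membrane-bound counterpart, had 966, 1000 and 1237 CPM in control and 926, 914 and 1054 CPM in knockout, a difference of -0.15 (95% interval -0.50 to 0.21, adjusted p = 0.617). Canx was the lowest estimate of all tested members, and its interval spans 0.

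Among the 9 disulfide isomerases and oxidases 3 rose. Both oxidases that recharge the isomerases were among them. Ero1l had 216, 201 and 224 CPM in control and 373, 349 and 390.3 CPM in knockout (log2 fold change 0.80, SE 0.14, adjusted p = 0.00235). Its paralogue Ero1lb, here 1.49 against 40.4 CPM per kilobase of exon for Ero1l in the control group, had 9.34, 8.76 and 11.6 CPM in control and 19.6, 15.2 and 15.7 CPM in knockout (log2 fold change 0.76, SE 0.18, adjusted p = 0.016). In both genes the 2 groups were fully separated. Pdia4 (ERp72), an isomerase, had 549.5, 542 and 551 CPM in control and 1009, 750.2 and 774 CPM in knockout (log2 fold change 0.63, SE 0.16, adjusted p = 0.0228). P4hb, which encodes the classical protein disulfide isomerase, had 2277, 1929.6 and 1806 CPM in control and 2345, 2103 and 1611 CPM in knockout, a difference of 0.01 (95% interval -0.39 to 0.42, adjusted p = 0.978). The other isomerases and thioredoxin-like proteins Pdia3, Pdia5, Pdia6, Erp29 and Erp44 overlapped between the groups, with log2 differences of 0.02, 0.10, 0.07, -0.07 and 0.20 in that order. Without IFNγR1KO replicate 10, Pdia4 and Ero1lb were no longer called (adjusted p = 0.139 and 0.0872), and the same held without scrambled control replicate 1 (0.0596 and 0.0505) and without scrambled control replicate 2 (0.0917 and 0.0774); Pdia4 was also lost without IFNγR1KO replicate 11 (0.051), whereas Ero1l kept its call in every such fit.

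Of the 10 tested ERAD members 4 rose, 3 of them beyond the DEG threshold, and these were parts of the membrane complex around the ubiquitin ligase HRD1. Other genes of or around that complex did not pass, among them the members Derl2 and Os9. Outside the members the same held by edgeR for Selenos (log2 difference 0.55, adjusted p = 0.0714), Ube2j1 (0.25, 0.218), Fam8a1 (0.15, 0.592) and Aup1 (-0.11, 0.677). Herpud1, a membrane adaptor of that complex (ENSMUSG00000031770.16, chromosome 8, 94386438 to 94395377), showed the largest fold change of all members tested. It had 141, 158 and 121 CPM in the control libraries and 712, 584 and 534 CPM in the knockout libraries, 4.35-fold higher (log2 fold change 2.12, SE 0.17, adjusted p = 1.11e-05). The lowest knockout culture lay far above the highest control. The 150 bases before its RefSeq start (chr8:94386279-94386428, + strand) are shown because this gene led the members; the capitals mark a CARE, the C/EBP-ATF response element read as TGATGNAA, here on the opposite strand from -112 to -105, and an ERSE-II, ATTGG and CCACG 1 base apart, from -52 to -42, positions counted from the start site:
Herpud1 promoter: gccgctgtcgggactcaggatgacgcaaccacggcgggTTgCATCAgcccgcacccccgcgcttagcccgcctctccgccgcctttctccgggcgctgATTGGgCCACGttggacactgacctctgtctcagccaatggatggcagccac
An exact CARE stood in 3.97% of all windows and in 1 of the 32 members with a window, and an ERSE-II in 0.0365% of all windows and in Herpud1 and Dnajb11. TGACGTGG, the UPR element, was found in 0.676% of all windows and, among the members, in Vcp alone.

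Sel1l (chromosome 12, 91806043 to 91849157), the scaffold of the HRD1 complex, had 101, 103 and 132 CPM in control and 298, 243 and 301 CPM in knockout (log2 fold change 1.33, SE 0.16, adjusted p = 0.000256). Syvn1 (chromosome 19, 6046576 to 6053712), which encodes HRD1 itself, had 59.3, 56.7 and 66.1 CPM in control and 143, 117 and 130.2 CPM in knockout (log2 fold change 1.10, SE 0.14, adjusted p = 0.000365). Neither gene overlapped between groups, and with Herpud1 both were called in all 6 fits that left out 1 library. Derl1, a membrane protein of the retrotranslocation step, had 285, 251 and 266 CPM in control and 443, 366 and 328 CPM in knockout (log2 fold change 0.50, SE 0.15, adjusted p = 0.0449). Its relative Derl2 was close to the threshold at 0.42 (adjusted p = 0.064), with groups that did not overlap. Derl3, the third of the family, had 0, 1 and 3 counts in control and 1, 2 and 2 counts in knockout, too few to compare. Derl1 kept its call only without IFNγR1KO replicate 12 (adjusted p = 0.0102) among the fits with 1 library left out; it had 0.0716, 0.159 and 0.0747 without control replicates 1, 2 and 3, and 0.229 and 0.12 without knockout replicates 10 and 11, and Derl2 was called in these fits only without IFNγR1KO replicate 12 (0.0195).

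The ERAD members that act on the glycan or in the cytosol did not pass. Edem1, a mannosidase-like protein that marks misfolded glycoproteins, had 144, 139 and 159.7 CPM in control and 149, 139 and 159 CPM in knockout, a difference of 0.02 (95% interval -0.27 to 0.31, adjusted p = 0.952). Its relatives Edem2 and Edem3 had differences of 0.38 and -0.11 on the log2 scale; Edem2 was separated between the groups (adjusted p = 0.117) and passed only without IFNγR1KO replicate 12 (0.0323). Os9, the lectin that reads the trimmed glycan, was separated as well, with a difference of 0.25 (adjusted p = 0.266). Vcp, the cytosolic ATPase that extracts ERAD clients, overlapped at 430.0 ± 89.7 CPM in control and 399.6 ± 80.0 CPM in IFNγR1KO (SD, n = 3 each). Sec61b, a subunit of the channel through which proteins enter the ER, overlapped too, with a log2 difference of -0.12 (95% interval -0.58 to 0.35).

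**Figure D3:**
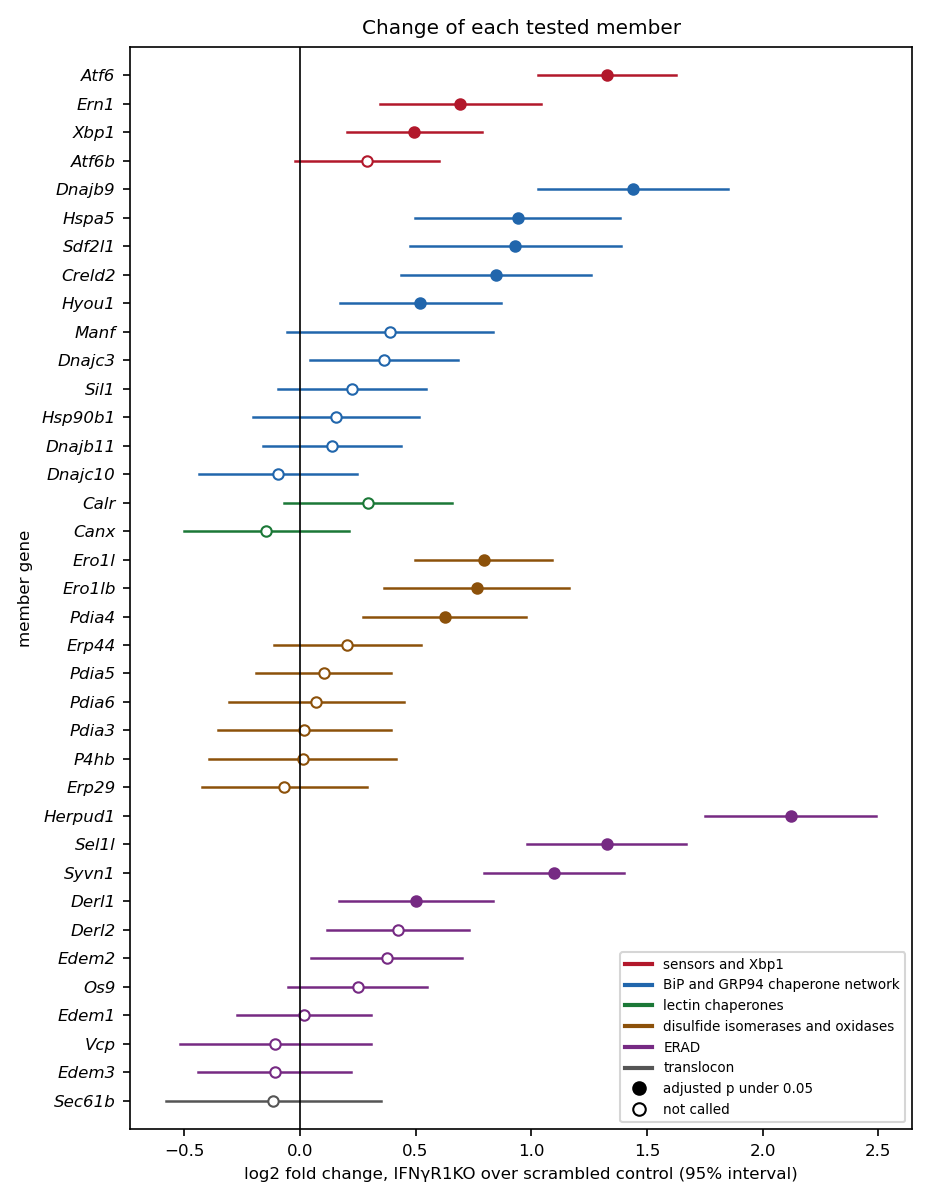
Points are the log2 fold changes of IFNγR1KO over scrambled control with 95% intervals from edgeR for the 37 tested members, ordered by role; filled points passed an adjusted p under 0.05. Every filled point lies to the right of 0, and the open ones stay between -0.58 and 0.83 with their whole interval.

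For the 22 tested members that did not pass, the 95% intervals lay between -0.58 and 0.83, so that a doubling was outside all 22 of them while smaller changes remain possible. Within the roles the medians of the log2 fold change were 0.59 for the sensors and Xbp1, 0.39 for the BiP and GRP94 network, 0.07 for the lectins, 0.10 for the disulfide enzymes and 0.40 for ERAD. Summed CPM of the sensors was 359, 376 and 367 in control and 572, 531 and 569.6 in knockout, 1.52 times as high on average. The BiP and GRP94 network went from 6563, 6332 and 5957 to 11947, 9158 and 8082 CPM (1.55 times). Much of that rise came from Hspa5, which averaged 2568 CPM in control and 4930 CPM in knockout. The network averaged 6284 and 9729 CPM, and 6 of its 11 genes were not called. The ERAD sum went from 1424, 1497 and 1656 to 2583, 2210.2 and 2379 CPM (1.57 times). Much of that rise came from Herpud1, at 140 and 610 CPM on average, where the ERAD sum averaged 1526 and 2391 CPM. These sums therefore do not describe a typical gene of either role. The disulfide enzymes overlapped between the groups, at 5812, 5599.5 and 5073 CPM in control and 7061, 5919 and 5177 CPM in knockout (1.10 times). Neither the sums nor the medians carry a test. Between 5.70% and 26.4% of the exonic bases of Sil1, Vcp, Manf, Hsp90b1 and Erp29 are also exonic for a neighbour on the opposite strand, where reads cannot be told apart without strand, whereas the share was at most 1.87% for the members that rose (Syvn1).

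On the scale of CPM per kilobase of exon, the 3 highest members in control were P4hb, Calr and Hspa5 at 700.5, 609 and 607. The length used was that of the merged exons of all annotated transcripts of a gene. Ranks between genes therefore depend on the annotation as well as on expression. In IFNγR1KO the order was Hspa5, Calr and P4hb at 1166, 747 and 706. Herpud1 moved from rank 18 at 60.1 to rank 10 at 262. Atf6, in spite of its fold change, stayed near the bottom, at 5.10 and 12.8, and Ern1 at 3.08 and 4.98 and Ero1lb at 1.49 and 2.53 were lower still.

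**Figure D4:**
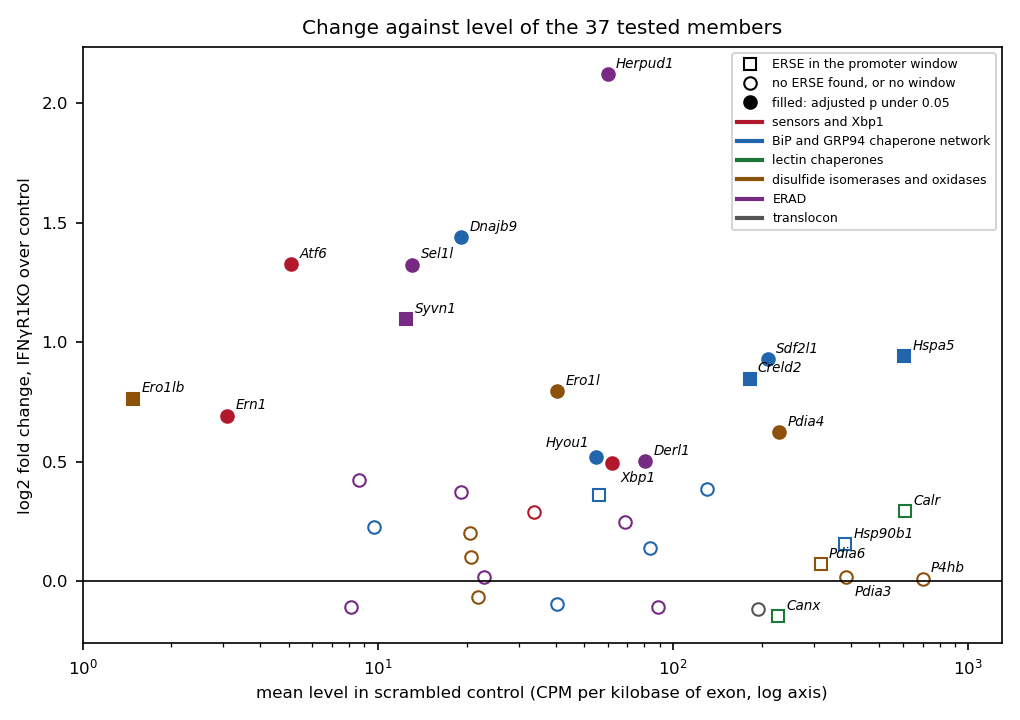
The x axis is the mean level in scrambled control in CPM per kilobase of exon (log axis) and the y axis the log2 fold change; squares mark members with an exact ERSE in the promoter window, and filled marks passed the test. The 5 members above a log2 fold change of 1 lie at or below the 60.1 CPM per kilobase of Herpud1, and squares are found among both filled and open marks.

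The 9 tested members with an ERSE had a median log2 fold change of 0.36, from -0.15 to 1.10, and 4 of them rose. The 22 tested members with a window but no exact ERSE had a median of 0.27, from -0.12 to 2.12, and 8 of them rose. Atf6, Hyou1, Sil1, Manf, Erp29 and Derl1 had no window and were not searched.

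Ratios of CPM per kilobase within a library were taken for 6 pairs of members, picked after their values were seen. The separations and p-values of these pairs are therefore a description and give no support of their own. The adjustment below does not cover the pairs that were not picked. The ratio of Atf6 to Atf6b was 0.167, 0.126 and 0.165 in control and 0.345, 0.306 and 0.286 in knockout. The ratio of Hspa5 to Hsp90b1 was 1.89, 1.53 and 1.38 in control and 2.97, 2.94 and 2.27 in knockout. Both pairs were separated between the groups, by 1.04 and 0.77 on the log2 scale, each at p = 0.1 in a two-sided exact permutation test, the smallest value that 3 against 3 libraries allow (0.15 after Benjamini-Hochberg adjustment over the 6 pairs). The ratios of Sel1l to Vcp and of Herpud1 to Edem1 were separated as well, by 1.43 and 2.10 at the same exact permutation p. The ratio of Ero1l to Ero1lb, in contrast, overlapped, at 29.2, 28.9 and 24.3 in control and 23.95, 28.9 and 31.2 in knockout (exact permutation p = 0.9). The ratio of Derl1 to Derl2 overlapped likewise (exact permutation p = 0.4).

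The knockout cultures differed in the height of the members. Replicate 10 was the highest of its group for 26 of the 37 tested members and for 11 of the 15 that rose, and replicate 12 was the lowest for 19 of 37. The median coefficient of variation over the tested members was 9.34% in control and 14.2% in knockout, the latter highest for Sdf2l1 at 29.1%. Neither the order of the replicates nor this variation was taken over all tested genes. Whether they are particular to the members or hold for the whole libraries was not tested. Replicates 10 and 11 were the nearest pair of libraries of a group (Pearson r on log2 CPM 0.991, taken across genes, which are not independent replicates), and 10 and 12 the most distant (0.978). Without replicate 10, 7 members were called higher (18.9%) where 4.0% of all genes were: Ern1, Atf6, Dnajb9, Ero1l, Herpud1, Sel1l and Syvn1. Without replicate 12, 18 members were called higher (48.6%), where 9.65% of all genes were. Atf6, Dnajb9, Ero1l, Herpud1, Sel1l and Syvn1 were called in all 6 fits that left out a library.

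Beyond the members, 88 other genes of the pathway were listed by function and 87 were tested; 6 were higher (6.9%) and 5 lower (5.75%), with a median log2 fold change of -0.01. Together these 11 calls (12.6%) were a share below the 15.2% of all tested genes. Sensor signalling held 5 of these 11 calls, with 4 of 13 genes higher and 1 lower. Ddit3, which encodes the stress transcription factor CHOP, had 63.8, 70.4 and 50.1 CPM in control and 608, 545 and 463 CPM in knockout (log2 fold change 3.13, SE 0.18, adjusted p = 6.56e-07). Ppp1r15a (GADD34), the phosphatase subunit that reverses eIF2α phosphorylation, had 14.9, 17.7 and 13.4 CPM in control and 125, 123 and 130.3 CPM in knockout (3.04, SE 0.15, adjusted p = 1.69e-07). Atf4, the transcription factor downstream of eIF2α phosphorylation, was higher by 1.13 (adjusted p = 0.000986). The remaining calls of this list, named after their values were seen, were the third sensor Eif2ak3 (PERK) at 0.52 (adjusted p = 0.0429) and Mbtps1, a protease that cleaves ATF6, at -0.48 (adjusted p = 0.0366). Eif2ak3 had adjusted p from 0.0656 to 0.158 in the fits that left out any library other than scrambled control replicate 3, and Mbtps1 from 0.0599 to 0.189 in those that left out any other than IFNγR1KO replicate 12. Of the 17 other translocon and signal peptide genes 0 passed by edgeR, and 1 did at an unadjusted p under 0.05, Serp1. In the 20 other ERAD genes 2 rose (10%, near the 7.66% of all genes) and 0 fell: the membrane ubiquitin ligase Rnf185 by 0.51 (adjusted p = 0.0254) and Ngly1, the enzyme that strips glycans from ERAD clients, by 0.62 (adjusted p = 0.037). Rnf185 had adjusted p from 0.0501 to 0.0864 when any library other than scrambled control replicate 3 was left out, and Ngly1 from 0.0542 to 0.143 when any other than scrambled control replicate 2 was.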

How the data were processed

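Gene counts of 6 libraries were analysed. Per the submitters' notes, the authors used STAR 2.7.5a with GRCm38 for paired-end alignment and counted reads per gene with HTSeq 0.11.2; the deposited values are these raw counts. The annotation release and the strand setting are not given in the sources used here. Reads that the counting step assigned to no feature, 46.9% to 47.7% of each table, were left out. Genes were matched by Ensembl ID to GENCODE M21. Genes passing filterByExpr (minimum count 10, minimum total 15) were tested with edgeR 4.0.16 (quasi-likelihood, TMM, all 6 libraries, no covariate) in R 4.3.3, with Benjamini-Hochberg adjustment over 13642 genes; genes were called at 0.05. DESeq2 1.42.0, limma 3.58.1, other scalings and filters, thinning, a threshold of 0.01 and leaving out each library were alternatives. The edgeR, DESeq2 and limma tests were also run on simulated counts, drawn with means and dispersions taken from the main fit. Members, lists and tests were chosen with earlier results of these data known. Per-library values are given for called members and for 13 members set by symbol, other members by difference or range, and of each further list up to 3 called genes with the smallest adjusted p. Ratios within libraries used two-sided exact permutation tests. Promoter windows came from RefSeq (GRCm38.p6).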

Additional observations from a re-analysis of the deposited data

How the results depend on the processing

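No paired analysis was possible because the 2 groups share no replicate numbers. With library totals, the summed level of the members was 1.36 times as high in IFNγR1KO, and 0 genes of other sensor signalling were lower, 0 of the oligosaccharyltransferase and 1 of the other disulfide and proline isomerases. Upper-quartile factors gave 0 lower oligosaccharyltransferase genes and 1 lower gene among the other disulfide and proline isomerases, and the stricter filter gave 0 and 1, with 0 lower for glycan trimming. Man1a, the glycan trimming gene called lower in the main fit, fell below the mean count of 50 that this filter requires and was not tested there. Without a low-count filter 1 glycan trimming gene was higher. At an adjusted p under 0.01, 446 genes of the table were higher and 407 lower, with 7 members higher (1 sensor, 2 of the BiP and GRP94 network and 1 disulfide enzyme among them), 0 lower genes of other sensor signalling, 0 of the oligosaccharyltransferase and 1 of the other disulfide and proline isomerases, and 0 higher genes of other ERAD. The causes of the other differences were not tested. Leaving out 1 library gave 521 to 1363 higher and 434 to 1443 lower genes in the table, and 7 members without IFNγR1KO replicate 10 to 18 without IFNγR1KO replicate 12: 1 to 3 sensors, 1 to 6 of the BiP and GRP94 network and 1 to 3 disulfide enzymes. In the further lists these fits gave 0 to 1 lower in other sensor signalling, 0 to 1 higher in the other translocon genes, 0 to 1 higher and 0 to 1 lower in the oligosaccharyltransferase, 0 to 1 higher in glycan trimming, 1 to 2 lower in the other disulfide and proline isomerases, and 0 to 1 higher in other ERAD. Of the 15 calls, 13 held in all 8 alternatives of test, scaling, filter and depth; Xbp1 was lost without a filter, and Derl1 there and after thinning, while Derl2 was called with library totals and with upper-quartile factors. Leaving out members that share exonic bases with another gene left 12 called, because the called members Dnajb9, Pdia4 and Syvn1 were themselves among those left out. Dnajc10, P4hb, Pdia3, Pdia6, Erp29, Edem1, Edem3, Vcp and Sec61b, none of them called, changed sign in at least 1 alternative. For members that were not called, changes within their intervals remain possible.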

Other observations

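Of the 87 tested genes of the further lists 5 were lower in IFNγR1KO (5.75%), where 7.50% of all tested genes were; they are given here as single genes. Among 16 tested other disulfide and proline isomerases 2 fell and 0 rose. Fkbp10, a proline isomerase known for collagen folding, had 19.1, 18.9 and 20.6 CPM in the control libraries and 3.13, 3.39 and 5.20 CPM in the knockout libraries (log2 fold change -2.32, SE 0.21, adjusted p = 3.07e-05 by edgeR). Fkbp9, of the same family, had 673, 774 and 825 CPM in control and 482, 534 and 579 CPM in knockout (-0.51, SE 0.16, adjusted p = 0.0451). The groups of both genes did not overlap. Fkbp10 had adjusted p of 2.39e-08 to 0.00133 over the fits that left out 1 library, while Fkbp9 was not called (0.111 to 0.204) when any library other than scrambled control replicate 1 or IFNγR1KO replicate 12 was left out.

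Of 9 genes that trim or reglucosylate glycans 1 fell and 0 rose: Man1a, a Golgi mannosidase, had 16, 27 and 23 counts in control and 2, 5 and 4 counts in knockout (log2 fold change -2.09, SE 0.43, adjusted p = 0.00675 by edgeR), a low gene whose size is imprecise. Of 12 oligosaccharyltransferase genes, whose products attach glycans to nascent chains, 1 fell and 0 rose: Dad1, a subunit of that enzyme, had 173, 219 and 176 CPM in control and 132, 141 and 140.4 CPM in knockout (-0.46, SE 0.14, adjusted p = 0.0461). Dad1 was not called (0.0551 to 0.173) when any library other than scrambled control replicate 3 or IFNγR1KO replicate 12 was left out.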
